A study of Mus musculus with 32 samples.

Results

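Liver RNA of 3-week-old male mice was compared between offspring of obese dams (MM) and offspring of control dams (CM). The comparison holds 8 of the 32 libraries of the series, 4 MM and 4 CM, chosen by the group in their titles, and is described across all 15142 genes listed at this age. The groups are labelled maternal obesity and control diet. Their dams were fed a Western-style diet or chow before mating, during pregnancy and while nursing, and were mated to wild-type C57BL/6J males. The offspring of both groups carried a floxed *Reg3g* allele (*Reg3g-fl/+* or *Reg3g-fl/fl*) on a C57BL/6J background, with no Cre stated, and were killed at 3 weeks, before weaning and with free access to food. The 4 MM livers were thus still exposed to the milk of their dams, and effects of pregnancy and nursing cannot be told apart. The rest of the series is made of females of the same age (CF and MF) and of both sexes at 8 weeks, after several weeks on chow. Litters are not given, so p-values measure the spread between these libraries only. In whole liver, fewer cells of a type and less RNA per cell cannot be told apart.

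The hepatocyte, the main cell of the liver, makes plasma proteins, burns and stores the fatty acids that milk supplies, disposes of the nitrogen of amino acids and detoxifies reactive compounds. It is also the source of hepcidin, the hormone that limits iron entry into blood by blocking the iron exporter ferroportin, and whose gene is switched on through BMP receptors and SMAD proteins. Fatty acids act on hepatocyte genes through the nuclear receptor PPARα, and sterols through the SREBP factors.

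The libraries held between 34340804 and 45825607 counted reads, and 15097 genes were tested. All 16 libraries of this age, the 8 of the females included, were fitted together, so that they share an estimate of the spread. Levels below are in CPM, the counted reads of a gene per 1000000 reads of its library, on library sizes scaled by TMM, given in the order of replicates 1, 3, 4 and 5, and differences are log2 fold changes, MM minus CM, with their standard error. A gene was called when its adjusted p in edgeR's quasi-likelihood test was below 0.05. In MM, 251 genes rose (1.66% of those tested) and 333 fell (2.21%), 584 in all (3.87%). Of these, 85 were at least 2-fold higher and 112 at least 2-fold lower, and 2702 genes had an unadjusted p below 0.05. The CM and MM libraries did not overlap for 520 of the 584, against 1413 of all genes tested (9.36%), of which 680 were higher (4.5%) and 733 lower (4.86%). The split of calls rests in part on the scaling: with total counts in place of TMM, which moved the median of all genes from 0.01 to 0.11, 71.9% of the calls were higher, against 43% with TMM. With each of the 8 libraries left out in turn, 209 of the 584 genes (35.8%) kept their call, and in a fit of the 8 male libraries alone 200 did. CM1 and MM1 were the highest of their groups in the clock genes *Arntl* and *Npas2*, and MM1 in red cell genes such as *Slc4a1*, as described with those genes. CM4 stood far above the other CM libraries in serum amyloid genes, also described below. CM1 had the highest CM sum of the fatty acid synthesis list (36620 CPM, others 8474 to 18490 CPM) and of the cell cycle list (759 CPM, others 324 to 379 CPM). Without CM1 and MM1 together 698 genes were called, 427 of them among the 584. All 12 hepatocyte markers examined were measured, with *Alb*, the albumin gene, at 98240 to 118200 CPM in CM and 85110 to 106200 CPM in MM. Each of the 12 had a negative log2 fold change (median -0.18, or -0.08 with total counts) and 2 of them, *Tat* and *Fgb*, were called, against 1 without CM4, CM5, MM3 or MM4.

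The largest fall among all genes called was in hepcidin. *Hamp*, on chromosome 7 at chr7:30942368-30944032 (mm10), is the hepcidin gene of the mouse, and *Hamp2*, at chr7:30922372-30924681 on the same strand, is its close copy. These are the gene models of the count table. The 250 bases before the start of each in RefSeq are shown because a match to GGCGCC, the core of the element through which BMP signals act on the hepcidin gene, lies in *Hamp*, and the copy differs there. They lie at chr7:30944030-30944279 for *Hamp* and chr7:30924182-30924431 for *Hamp2* (GRCm38.p6, minus strand). RefSeq starts *Hamp2* further downstream than the count table does, so that its window lies inside the longer model of the table. The capitals mark GGCGCC in *Hamp* and the 6 bases that align with it in *Hamp2*.
Hamp: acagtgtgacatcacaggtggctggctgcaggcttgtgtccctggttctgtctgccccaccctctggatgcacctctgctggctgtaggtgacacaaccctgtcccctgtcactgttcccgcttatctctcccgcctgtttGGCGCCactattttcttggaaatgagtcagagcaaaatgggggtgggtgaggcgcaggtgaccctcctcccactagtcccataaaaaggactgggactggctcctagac
Hamp2: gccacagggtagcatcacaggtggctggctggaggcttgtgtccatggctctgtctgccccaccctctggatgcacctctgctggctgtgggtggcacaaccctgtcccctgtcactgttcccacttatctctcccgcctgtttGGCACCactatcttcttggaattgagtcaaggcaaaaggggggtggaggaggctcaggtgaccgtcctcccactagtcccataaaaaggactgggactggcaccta
The core began 109 bases before the RefSeq start of *Hamp*. In *Hamp2* the aligned bases carried the substitution G4A, counted from 1 at the first base of the core. Over the 247 bases that align, 91.9% were identical. A match to GGCGCC, which reads the same on both strands, was found in 7 of the 17 hepcidin and BMP-SMAD genes with a promoter in the table, and in 18.7% of the 11231 genes tested that have one. Of these 7 genes *Hamp* alone was called.

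*Hamp* was measured at 97.4, 369, 237 and 411 CPM in CM and at 0.0233, 0.401, 0.101 and 1.06 CPM in MM. The MM values rest on 1, 15, 5 and 38 reads, against at least 4076 reads in each CM library. Every MM library lay far below every CM library, a difference of -9.55 ± 0.75 (adjusted p = 3.25e-06, edgeR) on the log2 scale, or 750.4-fold as fitted. *Hamp2* was measured at 187, 268, 152 and 326 CPM in CM and at 0.513, 0.535, 0.0809 and 2.01 CPM in MM, likewise without overlap (log2 fold change -8.28 ± 0.70, adjusted p = 7.64e-06). Its level is uncertain, since reads shared by such close copies are dropped when multi-mapped reads are left out. In the 8-week males *Hamp* was present in both groups, at 661 ± 120 CPM (SD, n = 4) in CM and 921 ± 148 CPM (SD, n = 4) in MM (log2 fold change 0.48, adjusted p = 1).

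Of 25 genes of hepcidin control and BMP-SMAD signalling, 7 fell and none rose, and the list's median was -0.36 against 0.01 for all genes. Beside hepcidin they included genes that BMP signals switch on in many cells. *Id1*, which encodes an inhibitor of basic helix-loop-helix factors, was at 8.41, 9.81, 5.89 and 8.24 CPM in CM and 2.68, 1.58, 2.35 and 2.23 CPM in MM (-1.87 ± 0.27, adjusted p = 0.00131). *Id3*, its relative, was at 19.5, 40.8, 38.8 and 54.8 CPM in CM and 12.2, 10.5, 9.45 and 10.4 CPM in MM (-1.85 ± 0.23, adjusted p = 0.000345). The 4 MM libraries were close together for both, and below each CM library.

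*Atoh8*, which encodes a transcription factor that acts on the hepcidin promoter, was at 16.0, 23.3, 10.6 and 22.0 CPM in CM and 7.05, 2.49, 2.16 and 5.17 CPM in MM (-2.09 ± 0.34, adjusted p = 0.00294). *Smad7*, which encodes an inhibitory SMAD, was at 10.7 to 22.4 CPM in CM and 5.06 to 8.17 CPM in MM (-1.29 ± 0.27, adjusted p = 0.0153). In both genes CM4 was at or near the bottom of its group and MM1 at the top of its own, yet the groups did not overlap. *Bmp6*, the endothelial ligand that reports iron load to hepatocytes, was at 2.84, 4.42, 5.51 and 3.39 CPM in CM and 1.61, 1.31, 1.78 and 2.93 CPM in MM (-1.08 ± 0.26, adjusted p = 0.0311). Its groups overlapped through CM1 and MM5, and its call was lost without CM3, CM4, CM5, MM1, MM3 or MM4 and in the male libraries alone (adjusted p = 0.113). Of 18 markers of endothelial cells, 12 had a negative log2 fold change and 2 fell, *Bmp6* itself and *Clec4g*, with a median of -0.23 over the 18, whose summed level was 484 to 696 CPM in CM and 361 to 634 CPM in MM. Neither of these calls held in every fit without 1 library, and the part of endothelial cells in the *Bmp6* difference was not tested. *Hjv*, which encodes the coreceptor hemojuvelin, did not pass the test (-0.37 ± 0.14, adjusted p = 0.186). With each library left out in turn, 5 of the 7 calls held, and 6 held in the male libraries alone.

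**Figure D1:**
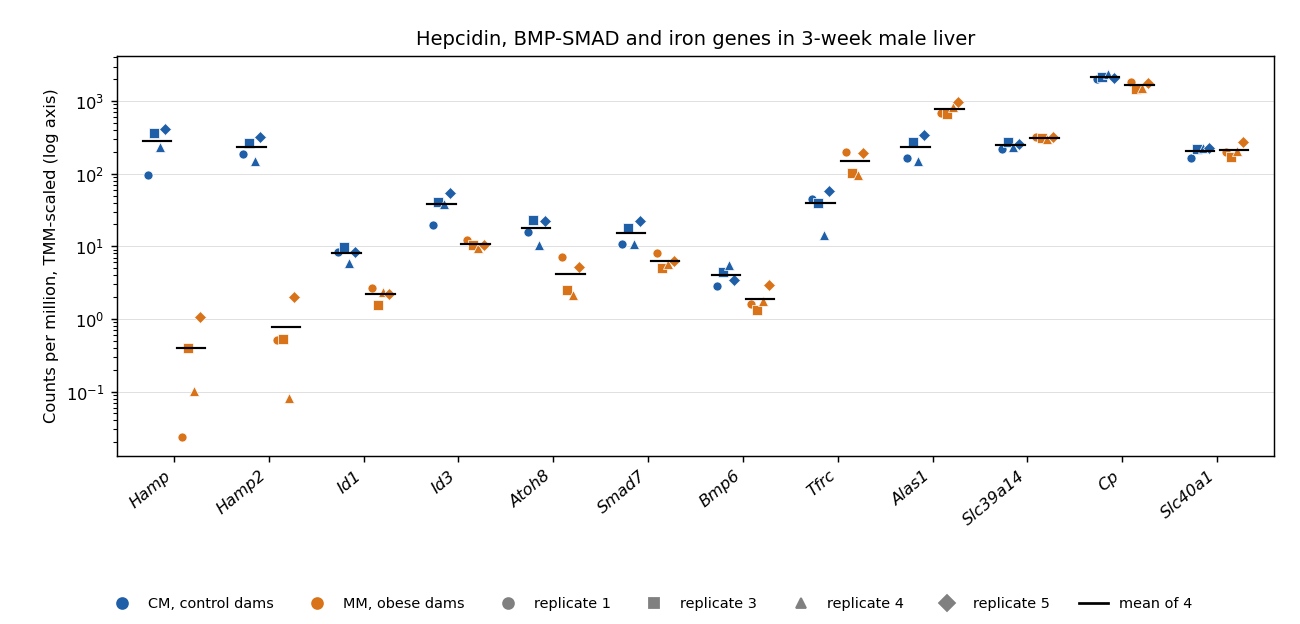
Levels of hepcidin, BMP-SMAD and iron genes in each male library at 3 weeks, in TMM-scaled CPM on a log axis, with CM in blue, MM in orange, a marker shape for each replicate number and a bar at the mean of 4 libraries. *Hamp* and *Hamp2* lie at 2.01 CPM or less in the 4 MM libraries and at 97.4 CPM or more in the 4 CM libraries, while *Tfrc* and *Alas1* are higher in each MM library than in any CM library.

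Among 22 genes of iron transport and storage, 3 rose and 1 fell. The median was -0.07, which turned to 0.03 with total counts. *Tfrc*, which encodes the transferrin receptor that takes up iron, was at 45.3, 39.5, 14.6 and 58.5 CPM in CM and 202, 102, 97.5 and 196 CPM in MM (1.92 ± 0.37, adjusted p = 0.00936). *Alas1*, the first enzyme of heme synthesis, was at 167, 275, 150.1 and 337 CPM in CM and 697, 662, 823 and 974 CPM in MM (1.76 ± 0.30, adjusted p = 0.00374). The groups did not overlap for either gene, though in the male libraries alone the adjusted p of *Tfrc* was 0.0598.

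*Slc39a14*, which encodes a carrier of iron not bound to transferrin, was at 217 to 272 CPM in CM and 299 to 322 CPM in MM (0.34 ± 0.08, adjusted p = 0.024). *Cp*, the ferroxidase ceruloplasmin, was at 1995 to 2345 CPM in CM and 1480 to 1853 CPM in MM (-0.37 ± 0.10, adjusted p = 0.0419). Both differences were modest, and neither call held in the male libraries alone (adjusted p = 0.112 and 0.143). *Slc40a1*, which encodes ferroportin, the target of hepcidin, overlapped between the groups (0.03 ± 0.15, adjusted p = 0.936). Without CM4, CM5 or MM3 the list had 2 calls, and without MM1 it had 6. *Tfrc* is also on the list of red cell precursors, whose summed level was 237 to 412 CPM in CM and 481 to 1250 CPM in MM, and the part of these cells in its rise was not tested.

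Many genes that PPARα switches on rose. Of 33 such genes tested, 18 rose and none fell, 31 had a positive log2 fold change, and the median was 0.69. *Ppara* itself, which encodes the receptor, was at 159.7, 152, 128 and 162 CPM in CM and 262, 244, 256 and 212 CPM in MM (0.69 ± 0.12, adjusted p = 0.00488). *Cpt1a*, which encodes the enzyme that commits long-chain fatty acids to entry into mitochondria, was at 507, 542, 437 and 551 CPM in CM and 845, 1067, 932 and 799 CPM in MM (0.84 ± 0.11, adjusted p = 0.000429). Each MM library lay above each CM library for both genes.

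*Cd36*, a fatty acid transporter of the plasma membrane, was at 50.7, 29.7, 48.5 and 44.4 CPM in CM and 107, 129.5, 109 and 174 CPM in MM (1.58 ± 0.24, adjusted p = 0.00207). *Vnn1*, the pantetheinase vanin, was at 60.2, 38.5, 38.9 and 37.1 CPM in CM and 79.1, 129.7, 107 and 140.5 CPM in MM (1.38 ± 0.20, adjusted p = 0.00124), with CM1 above the rest of its group. *Fgf21*, a hormone that the liver releases in fasting and under stress, was at 1.6, 2.66, 0.491 and 0.861 CPM in CM and 4.95, 3.35, 2.95 and 20.6 CPM in MM (2.50 ± 0.59, adjusted p = 0.0294). Its groups did not overlap, but MM5 was several times above the other MM libraries, and without MM5, CM1, CM4 or CM5 the call was lost. *Acot1*, an acyl-CoA thioesterase, rose with an overlap through CM1 (1.49 ± 0.34, adjusted p = 0.0255), and this call was lost in the male libraries alone (adjusted p = 0.113).

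In mitochondrial β-oxidation and ketogenesis, 9 of 24 genes rose and none fell, with 23 positive and a median of 0.35. *Eci2*, an isomerase for unsaturated fatty acids, rose by 0.57 ± 0.08 (adjusted p = 0.00133), and *Hadhb*, the β subunit of the trifunctional protein, by 0.47 ± 0.09 (adjusted p = 0.0106). *Bdh1*, which interconverts the ketone bodies, rose by 0.58 ± 0.14 (adjusted p = 0.0302). These log2 fold changes were smaller than those of *Cd36* or *Vnn1*, and the groups did not overlap for any of the genes just named.

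Among 23 genes of peroxisomal β-oxidation, 4 rose, none fell and the median was 0.22. *Acaa1b*, a thiolase, was at 726, 444, 568 and 434 CPM in CM and 819.6, 1294, 902 and 819 CPM in MM (0.82 ± 0.17, adjusted p = 0.0133). *Ehhadh*, the bifunctional enzyme, was at 775, 408, 504 and 429 CPM in CM and 869, 934, 713 and 1083 CPM in MM (0.77 ± 0.20, adjusted p = 0.0446), with CM1 inside the MM range. *Acaa1a* (0.48 ± 0.10, adjusted p = 0.0206) and *Decr2* (0.36 ± 0.08, adjusted p = 0.0165) were the other two that rose. None of 32 nuclear genes of oxidative phosphorylation was called by edgeR's quasi-likelihood or likelihood ratio test or by DESeq2, 1 had an unadjusted p below 0.05, and the median was -0.05, or 0.05 with total counts.

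**Figure D2:**
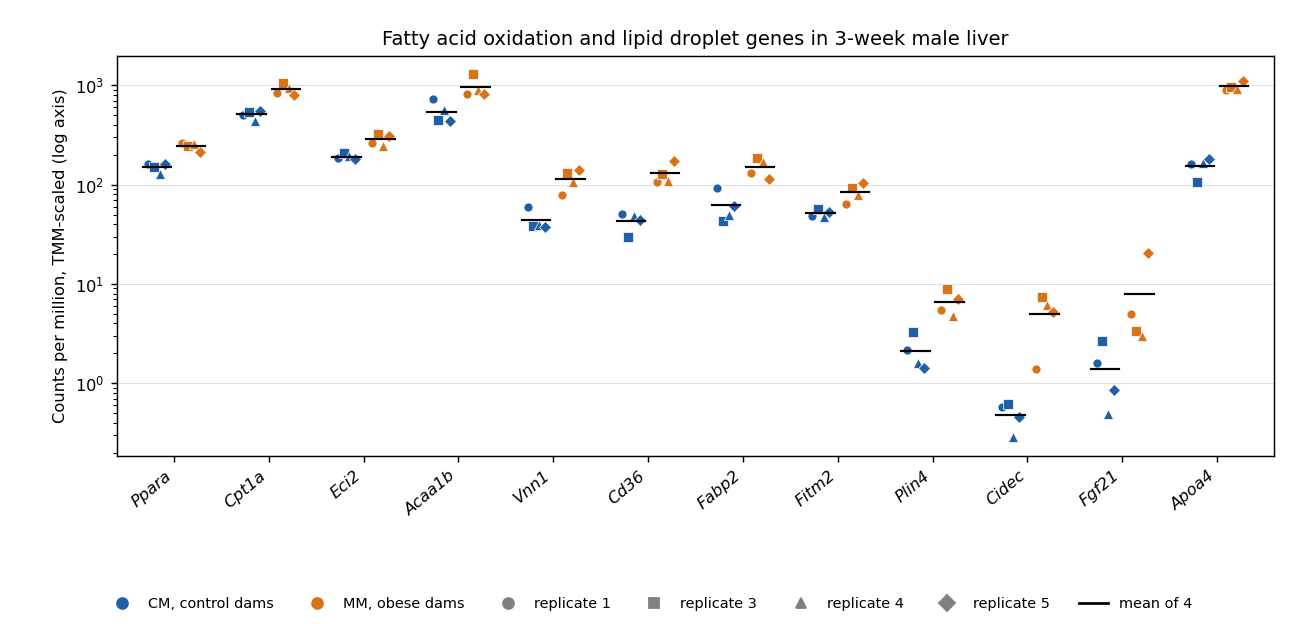
Levels of genes of fatty acid oxidation, lipid droplets and lipid transport in each male library at 3 weeks, in TMM-scaled CPM on a log axis, with CM in blue, MM in orange, a marker shape for each replicate number and a bar at the mean of 4 libraries. The CM and MM markers of each gene shown separate, with *Apoa4* at 106 to 183 CPM in CM and 909 to 1113 CPM in MM.

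Genes of lipid droplets and triglyceride handling gave 9 rises and no fall among 32 tested, with a median of 0.23. *Cidec*, which encodes a protein that fuses and enlarges lipid droplets, was at 0.573, 0.615, 0.284 and 0.459 CPM in CM and 1.38, 7.39, 6.13 and 5.22 CPM in MM (3.37 ± 0.69, adjusted p = 0.0132). MM1 was the lowest of its group and still above each CM library. The PPARα and lipid droplet lists share members, among them *Cidec*, whose call is counted in both and again among adipocyte markers. *Plin4*, a droplet coat protein, was at 2.17, 3.28, 1.6 and 1.44 CPM in CM and 5.46, 8.86, 4.77 and 7.07 CPM in MM (1.62 ± 0.32, adjusted p = 0.0102), and *Fitm2*, which acts in droplet formation at the endoplasmic reticulum, at 48.1, 57.1, 47.2 and 53.3 CPM in CM and 63.3, 92.9, 79.6 and 104 CPM in MM (0.72 ± 0.13, adjusted p = 0.00543). *Fabp2*, the fatty acid binding protein best known from the intestine, was at 93.6, 43.5, 49.2 and 61.0 CPM in CM and 132, 188, 167 and 114 CPM in MM (1.28 ± 0.24, adjusted p = 0.00751). All of these separated the groups.

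*Fabp4*, a fatty acid binding protein of adipocytes and macrophages, was at 14.9, 11.2, 12.6 and 11.7 CPM in CM and 43.8, 23.7, 25.9 and 19.3 CPM in MM (1.16 ± 0.24, adjusted p = 0.0165). Among 7 adipocyte markers tested, 2 were called, *Fabp4* and *Cidec*, and the summed level of the 7 was 905 to 1740 CPM in CM and 681 to 1830 CPM in MM. Without CM4 neither was called, and without CM5 1 was, *Cidec*. Of 20 markers of Kupffer cells and macrophages, none was called by edgeR's quasi-likelihood test or by DESeq2 and 1 had an unadjusted p below 0.05, while 19 had a positive log2 fold change (median 0.26, and 524 to 739 CPM in CM against 650 to 851 CPM in MM in sum). The part of either cell type in these values was not tested.

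*Apoa4*, an apolipoprotein of triglyceride-rich particles, was at 162, 106, 166 and 183 CPM in CM and 909, 958, 923 and 1113 CPM in MM (2.66 ± 0.35, adjusted p = 0.000487), a rise of 6.33-fold with little spread in either group. *Slc27a2*, which encodes an acyl-CoA synthetase and fatty acid carrier, rose by 0.63 ± 0.10 (adjusted p = 0.00332). Among all 28 apolipoprotein and lipid transport genes, 4 rose and 3 fell, the median was -0.04, or 0.05 with total counts, and 4 were called without CM5. In the fatty acid oxidation lists, calls were fewest without CM4, CM5 or MM3: the PPARα list had 10 calls without CM4, 11 without CM5 and 12 without MM3, the mitochondrial list 4 without any of the 3, and the peroxisomal list 2 without CM5 or MM3. Without CM1 and MM1 together the peroxisomal list had 8 calls and the PPARα list 20. In the male libraries alone, 7 of the 18 PPARα calls, 2 of the 9 mitochondrial calls, 0 of the 4 peroxisomal calls and 6 of the 9 lipid droplet calls held.

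Of 25 genes of fatty acid synthesis, 1 rose and 2 fell in the males (12%, where 3.87% of all genes were called), with a median of -0.19 that turned to 0.23 without CM1 and MM1, and 5 were called without CM1 alone and 6 without both. In the females 12 of the 25 were called and the median was 0.68, and no interaction with sex was called for any of them. *Acss2*, which makes acetyl-CoA from acetate, was at 667, 181, 429.5 and 328 CPM in CM and 64.5, 94.7, 82.3 and 84.2 CPM in MM (-2.30 ± 0.32, adjusted p = 0.000797), without overlap, and *Slc25a1*, the mitochondrial citrate carrier, fell less (-0.55 ± 0.11, adjusted p = 0.0128). *Srebf1*, which encodes the SREBP factor of fatty acid synthesis, was at 148, 147, 212 and 180.5 CPM in CM and 197, 439.8, 458 and 215 CPM in MM (0.93 ± 0.24, adjusted p = 0.0436). Its groups overlapped through CM4 and MM1, and the call was lost in the male libraries alone (adjusted p = 0.16). *Acly*, ATP citrate lyase, was at 1194, 212, 459 and 339.8 CPM in CM and 146, 269, 399 and 156 CPM in MM and did not pass the test (adjusted p = 0.163), with CM1 far above the other libraries.

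In cholesterol synthesis 19 of 20 genes fell (median -2.35) and kept their calls with each library left out and in the male libraries alone. Of 21 genes of sterol uptake, efflux and their control, 6 fell and 1, *Apoa4*, rose, with a median of 0.06. Those that fell included *Insig1*, which holds the SREBP factors back (-2.44 ± 0.20, adjusted p = 6.18e-06). *Idi1*, isopentenyl diphosphate isomerase, was at 109, 82.5, 92.6 and 122 CPM in CM and 7.51, 7.17, 6.98 and 4.75 CPM in MM (-3.94 ± 0.24, adjusted p = 1.77e-07). The 250 bases before its RefSeq start (GRCm38.p6, chr13:8885356-8885605, plus strand) are shown because CCAAT boxes, bound by the factor NF-Y, recur in this list. The capitals mark the matches, which read CCAAT on the opposite strand. The gene model of the count table starts further upstream, at chr13:8885501, and holds both matches.
Idi1: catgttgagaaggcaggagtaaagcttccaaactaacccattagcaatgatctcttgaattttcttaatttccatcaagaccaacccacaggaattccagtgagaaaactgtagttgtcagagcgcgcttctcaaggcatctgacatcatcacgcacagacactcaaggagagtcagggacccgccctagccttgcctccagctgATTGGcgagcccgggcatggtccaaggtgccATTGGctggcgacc
A match to CCAAT on either strand was found before the RefSeq start of all 15 of the cholesterol genes with a promoter in the table, and in 40.4% of the 11231 genes tested that have one.

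The interaction with sex was called for 2 genes (0.0132% of those tested), among them *Sqle*, squalene epoxidase. *Sqle* was at 185, 141, 119 and 206 CPM in CM and 10.6, 13.6, 12.5 and 11.9 CPM in MM, without overlap, a difference of -3.75 ± 0.18 in males against -2.17 in females (interaction -1.57 ± 0.23, adjusted p = 0.0477, edgeR). No interaction was called without CM5, MM1, MM3, MM5, CF3, CF6 or MF3, while DESeq2 called 33.

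Amino acid catabolism fell in part. Of 38 genes of the urea cycle and amino acid breakdown, 7 fell and none rose, 33 had a negative log2 fold change, and the median was -0.27. *Tat*, the tyrosine aminotransferase that glucocorticoids induce around birth, was at 1627, 1381, 1079 and 1214 CPM in CM and 479, 283, 281 and 245 CPM in MM (-2.04 ± 0.27, adjusted p = 0.000505). *Hal*, which breaks down histidine, was at 404, 558, 516 and 569 CPM in CM and 321, 158, 176 and 209.7 CPM in MM (-1.24 ± 0.22, adjusted p = 0.00469). MM1 was the highest of the MM libraries in both, and the groups did not overlap.

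*Sds*, serine dehydratase, was at 100.1, 99.8, 100.4 and 99.4 CPM in CM and 66.2, 55.4, 31.9 and 39.9 CPM in MM (-1.05 ± 0.23, adjusted p = 0.0211). *Gls2*, the liver glutaminase, was at 209, 234, 259 and 272 CPM in CM and 174, 111, 108 and 106 CPM in MM (-0.96 ± 0.17, adjusted p = 0.00493). *Gnmt*, which uses up methyl groups by methylating glycine, was at 812, 969, 906 and 1038 CPM in CM and 693, 398, 354 and 464 CPM in MM (-0.96 ± 0.21, adjusted p = 0.0219). The CM libraries were nearly equal for *Sds*, and each of these genes was lower in every MM library than in any CM library. The *Sds* call was lost without CM4, MM4 or MM5. The *Gnmt* call was lost without CM4, CM5, MM3, MM4 or MM5 and in the male libraries alone (adjusted p = 0.053).

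Within the urea cycle, *Ass1*, argininosuccinate synthase, was at 2264 to 3082 CPM in CM and 1311 to 1832 CPM in MM (-0.76 ± 0.14, adjusted p = 0.00574), without overlap. *Cps1*, the entry enzyme of the cycle, did not pass the test (-0.40 ± 0.17, adjusted p = 0.229), with MM1 inside the CM range, nor did *Otc*, ornithine transcarbamylase (-0.26 ± 0.09, adjusted p = 0.118). *Glul*, the glutamine synthetase of the cells around the central vein, had a log2 fold change of 0.11 ± 0.14 (adjusted p = 0.74). Without MM1, alone or together with CM1, the list had 13 calls, and without CM4 or MM4 it had 4.

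Several of the genes that fell are made mostly around the portal vein. Of 18 markers of the periportal zone, 7 fell and 1, *Apoa4*, rose, with a median of -0.62. Beside *Hal*, *Sds*, *Gls2* and *Ass1*, these included *Aldh1b1*, a mitochondrial aldehyde dehydrogenase (-0.68 ± 0.15, adjusted p = 0.0201), and *Etnppl*, which breaks down phosphoethanolamine, at 89.5, 126, 135 and 131 CPM in CM and 60.5, 60.6, 35.6 and 60.0 CPM in MM (-1.15 ± 0.22, adjusted p = 0.0101). The zone and amino acid lists share most of these genes. Of 18 markers of the pericentral zone, 2 fell, *Lgr5* (-0.90 ± 0.23, adjusted p = 0.0418) and *Cyp27a1* (-0.48 ± 0.11, adjusted p = 0.0244), and none rose (median -0.02, and 0.09 with total counts). That list had 1 call without CM1, CM3 or MM1, none without CM4, CM5, MM3 or MM4 and none in the male libraries alone, where *Lgr5* had an adjusted p of 0.0819. The periportal median was -0.44 without CM4, and the list had 5 calls without MM4.

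**Figure D3:**
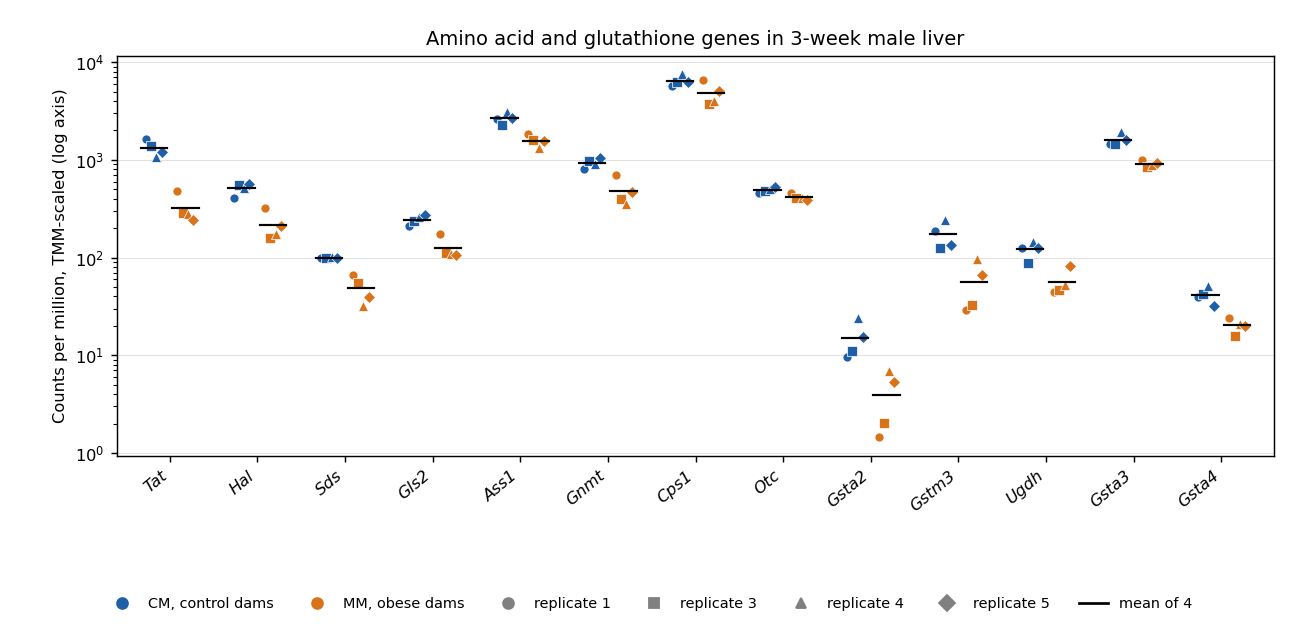
Levels of genes of amino acid catabolism, the urea cycle and glutathione transfer in each male library at 3 weeks, in TMM-scaled CPM on a log axis, with CM in blue, MM in orange, a marker shape for each replicate number and a bar at the mean of 4 libraries. Each MM library is below each CM library except for *Cps1*, where MM1 at 6615 CPM lies inside the CM range.

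Some of the glutathione S-transferases and other genes that the antioxidant factor NRF2 can switch on were lower. Of 34 genes tested, 10 fell and none rose, 30 had a negative log2 fold change, and the median was -0.41. *Gsta2* was at 9.67, 11.1, 24.0 and 15.2 CPM in CM and 1.45, 2.01, 6.96 and 5.36 CPM in MM (-1.92 ± 0.49, adjusted p = 0.0418). *Gstm3* was at 185, 127, 245 and 135 CPM in CM and 28.9, 32.4, 96.3 and 65.6 CPM in MM (-1.63 ± 0.37, adjusted p = 0.0238). CM4 was the highest CM library in both, and the groups did not overlap. The *Gsta2* call was lost without CM3, CM4, CM5, MM1, MM3 or MM5, and the *Gstm3* call without CM4 or MM3. Neither held in the male libraries alone (adjusted p = 0.104 and 0.0883).

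*Gsta3*, another transferase gene of the alpha class, was at 1457, 1453, 1917 and 1612 CPM in CM and 993, 852, 879.7 and 917 CPM in MM (-0.82 ± 0.12, adjusted p = 0.00167). *Gsta4*, whose enzyme detoxifies lipid peroxidation products, was at 39.4, 42.5, 50.8 and 32.2 CPM in CM and 24.1, 15.9, 21.1 and 20.0 CPM in MM (-1.02 ± 0.16, adjusted p = 0.00207). The MM libraries lay close together for both. *Ugdh*, which makes the glucuronic acid used in conjugation, had a log2 fold change of -1.10 ± 0.25 (adjusted p = 0.024), and *Mgst3*, a microsomal transferase, of -1.06 ± 0.21 (adjusted p = 0.0108).

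The regulators themselves did not pass the test: *Nfe2l2*, which encodes NRF2, had a log2 fold change of 0.12 ± 0.13 (adjusted p = 0.698) and *Keap1*, its inhibitor, of 0.04 ± 0.09 (adjusted p = 0.86). *Nqo1*, a classical NRF2 target, was at 17.9, 20.2, 15.2 and 23.5 CPM in CM and 5.25, 6.21, 14.1 and 10.3 CPM in MM, without overlap and without a call (-1.10 ± 0.35, adjusted p = 0.0997). The letters TGACNNNGC, the core of the antioxidant response element, were found on either strand in the 250 bases before the RefSeq start of 8 of 29 genes of this list with a promoter in the table, and in 13.8% of all genes tested that have one. Several of these transferase genes are near-identical neighbours, so reads between them may be divided with error. Calls numbered 4 without CM4 or MM3 and 6 without CM5 or without CM1 and MM1 together, and 5 of the 10 held in the male libraries alone.

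Among the called genes that were named, some encode secreted signals or their binders, and these went in both directions. No list of such genes was examined, so no share of them called is given. *Inhbe*, which encodes the inhibin βE chain that forms activin E, was at 17.6, 26.4, 15.2 and 34.7 CPM in CM and 85.1, 100.5, 77.0 and 117 CPM in MM (2.02 ± 0.31, adjusted p = 0.00207). *Fst*, which encodes follistatin, a secreted binder of activins, was at 4.75, 8.55, 27.1 and 18.0 CPM in CM and 1.84, 2.06, 2.43 and 1.23 CPM in MM (-2.94 ± 0.48, adjusted p = 0.00305). The 4 MM libraries were even for *Fst* whereas the CM libraries ranged widely, with CM4 the highest.

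*Igfbp1*, an insulin-repressed binding protein for insulin-like growth factors, was at 336, 344, 189 and 134 CPM in CM and 46.6, 85.5, 45.8 and 64.7 CPM in MM (-2.05 ± 0.48, adjusted p = 0.0266). *Bcl6*, a repressor that takes part in male-type growth hormone responses, was at 43.9, 49.9, 21.4 and 32.0 CPM in CM and 4.88, 17.1, 7.77 and 12.4 CPM in MM (-1.81 ± 0.37, adjusted p = 0.0149). The groups did not overlap, though the *Igfbp1* call was lost without CM1, CM3, MM1, MM4 or MM5 and the *Bcl6* call in the male libraries alone (adjusted p = 0.0596). Other genes of the growth hormone axis did not pass the test, among them *Igf1* (0.06 ± 0.19, adjusted p = 0.915), and 2 of the 18 on that list were called.

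*Zfp36*, which encodes the mRNA-destabilizing protein tristetraprolin, was at 86.0, 124, 97.9 and 119.9 CPM in CM and 34.4, 46.8, 38.9 and 29.9 CPM in MM (-1.51 ± 0.24, adjusted p = 0.00231). It was the only called gene of 18 in the immediate early list (5.56%, where 3.87% of all genes were called), and 4 were called without CM1. Among the genes that rose most were *Slc16a13*, a monocarboxylate transporter, at 0.812, 0.439, 0.439 and 0.344 CPM in CM and 3.13, 3.53, 2.25 and 5.61 CPM in MM (2.81 ± 0.35, adjusted p = 0.000353), and *Slc35f2*, a transporter of the same broad superfamily of solute carriers, at 0.406, 0.439, 0.31 and 0.344 CPM in CM and 1.35, 3.1, 3.15 and 2.12 CPM in MM (2.69 ± 0.41, adjusted p = 0.00188). *Cntnap1*, best known from the junctions of myelin with axons, was at 2.17, 1.14, 1.29 and 2.12 CPM in CM and 4.37, 13.1, 13.6 and 6.37 CPM in MM (2.47 ± 0.41, adjusted p = 0.00355). *Apol11b*, an apolipoprotein L gene, had the steepest rise of the called genes without overlap and with a mean of at least 1 CPM in MM, predicted models left out. Its log2 fold change was 4.06 ± 0.84 (adjusted p = 0.0148), with CM at 0.0878 to 0.144 CPM. The MM libraries ranged from 0.251 to 3.92 CPM, and the call was lost without CM4.

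Single libraries stood apart in several gene groups. Among 20 clock genes, *Per2* and *Hlf* rose, none fell, and neither call held in the male libraries alone. *Arntl*, which encodes the clock activator BMAL1, was at 36.4, 20.1, 10.8 and 16.0 CPM in CM and 33.03, 3.08, 2.97 and 6.56 CPM in MM (adjusted p = 0.524), and *Npas2*, its partner, at 13.1, 3.57, 0.956 and 2.01 CPM in CM and 8.61, 0.508, 0.647 and 0.587 CPM in MM (adjusted p = 0.657). CM1 and MM1 were the highest of their groups in both. They are also the libraries whose titles lack a mark carried by the other 6, which the labels do not explain.

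*Per2*, a clock repressor, was at 10.9, 9.6, 14.3 and 17.2 CPM in CM and 12.8, 53.4, 58.6 and 33.4 CPM in MM (1.61 ± 0.36, adjusted p = 0.0223), and *Hlf*, a clock output factor, at 53.3, 59.5, 54.2 and 66.5 CPM in CM and 54.8, 109.8, 103 and 108 CPM in MM (0.69 ± 0.18, adjusted p = 0.0423). MM1 lay inside the CM range in both, while the other MM libraries lay above it. Without CM1 and MM1 the list had 6 calls, 3 higher and 3 lower, and *Per2* had a log2 fold change of 1.82 (adjusted p = 0.00269). Without CM1, CM3, CM4, MM3 or MM4 no clock gene was called, without CM5 or MM5 1 was, and without MM1 alone 7 were.

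**Figure D4:**
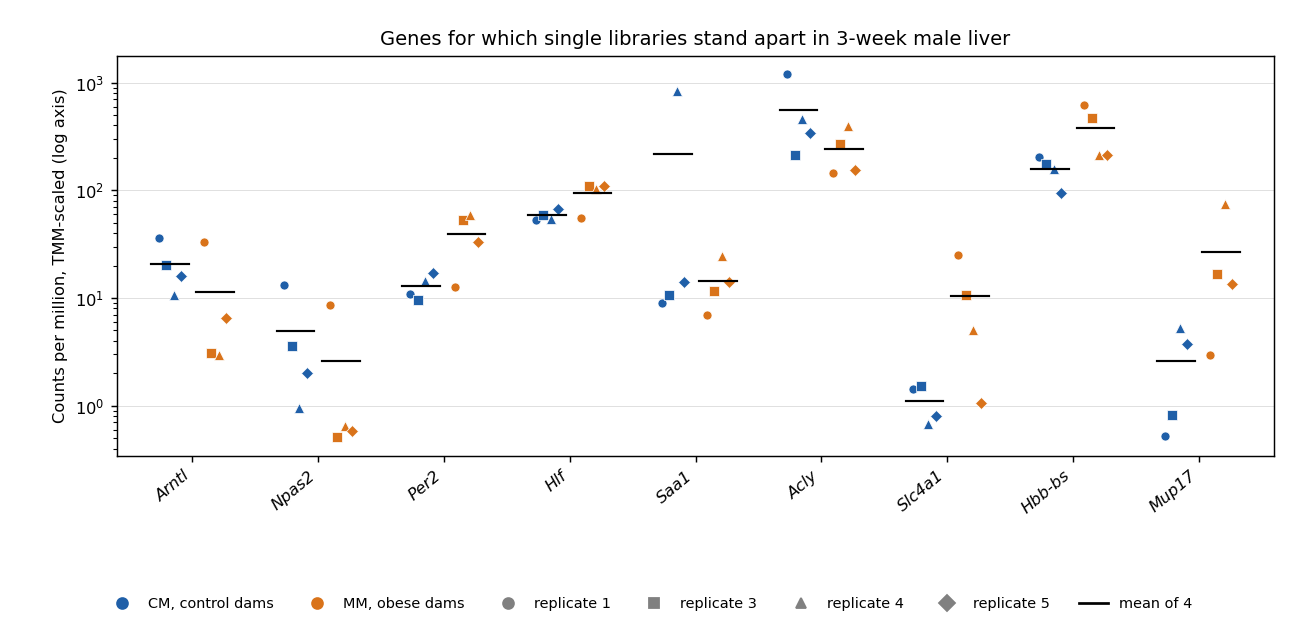
Levels of clock, acute phase, lipogenic, red cell and urinary protein genes in each male library at 3 weeks, in TMM-scaled CPM on a log axis, with CM in blue, MM in orange, a marker shape for each replicate number and a bar at the mean of 4 libraries. The circles of replicate 1 are highest in both groups for *Arntl* and *Npas2*, and *Saa1* reaches 833 CPM in CM4 against 8.93 to 14.1 CPM in the other CM libraries.

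In the acute phase and complement list, 5 of 34 genes fell, none rose and the median was -0.27. The 3 chains of fibrinogen, the clotting protein, were among the 5, with log2 fold changes of -0.49 ± 0.10 for *Fga* (adjusted p = 0.0127), -0.46 ± 0.10 for *Fgb* (adjusted p = 0.0189) and -0.50 ± 0.10 for *Fgg* (adjusted p = 0.0137). *Masp1*, a protease of the lectin pathway of complement, was the fifth (-0.31 ± 0.08, adjusted p = 0.0334). *C3*, the central complement component, was at 10520, 13360, 12300 and 10580 CPM in CM and 10630, 6638, 7215 and 8062 CPM in MM (-0.52 ± 0.14, adjusted p = 0.0493), with MM1 inside the CM range. *Saa1*, the serum amyloid gene that inflammation induces, was at 8.93, 10.7, 833 and 14.1 CPM in CM and 6.96, 11.6, 24.8 and 14.1 CPM in MM and did not pass the test (adjusted p = 0.123). CM4 alone was far above the rest. It was likewise apart in *Saa2* (410 CPM, other CM libraries 4.59 to 7.26 CPM) and *Saa3* (47.7 CPM, other CM libraries 1.55 to 1.67 CPM). The summed level of neutrophil markers was 93.8 CPM in CM4, 11.8 to 18 CPM in the other CM libraries and 15.9 to 28.0 CPM in MM. What sets CM4 apart was not tested. Without CM4 the acute phase list had 1 call and a median of 0.03. It had 2 calls without CM5, 3 without CM3, MM4 or MM5 and none without MM3, and in the male libraries alone none of the 5 held.

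None of 30 interferon response genes was called by the quasi-likelihood test, the likelihood ratio test or DESeq2, and 1 had an unadjusted p below 0.05. Their median was 0.30 in males and -1.27 in females, where 11 were called, and no interaction was called for any of them. Markers of T and NK cells, B cells, neutrophils and cholangiocytes gave no call by edgeR or DESeq2 either, with 1, 0, 3 and 1 genes at an unadjusted p below 0.05. Of 34 cell cycle genes, 1 was called (2.94%, where 3.87% of all genes were called). This was *E2f8*, a transcription factor, which rose (0.94 ± 0.22, adjusted p = 0.0298). In the list 32 genes had a negative log2 fold change (median -0.29), and the median became 0.22 without CM1 and MM1. The *E2f8* call was lost without CM3, CM4, CM5, MM1 or MM5 and in the male libraries alone (adjusted p = 0.109).

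Of 15 markers of red cell precursors tested, 5 rose and none fell, with a median of 1.92. They included *Tfrc*, *Slc4a1* and *Trim10* (3.40 ± 0.90, adjusted p = 0.0487). *Slc4a1*, which encodes the band 3 anion exchanger, was at 1.43, 1.52, 0.672 and 0.804 CPM in CM and 25.0, 10.7, 5.06 and 1.06 CPM in MM (3.24 ± 0.76, adjusted p = 0.0275). MM1 was the highest, and MM5 lay inside the CM range. The β-globin gene *Hbb-bs* was at 204, 174, 157 and 95.0 CPM in CM and 614, 468, 213 and 213 CPM in MM and did not pass the test (adjusted p = 0.0505). The list had 2 calls without CM1, 1 without CM3, CM4, CM5, MM1 or MM3 and 10 without MM5. Without CM1 and MM1 together it also had 1, and in the male libraries alone it had none. Of 12 major urinary protein genes, 2 rose, *Mup17* (3.38 ± 0.83, adjusted p = 0.0335) and *Mup19* (3.97 ± 1.01, adjusted p = 0.0418), with overlap between the groups. These genes are near-identical copies whose levels are uncertain, and neither call held in the male libraries alone or without CM1, CM3, CM5, MM3 or MM4.

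The females of the same age, measured in other libraries and fitted in the same model, had differences of the same sign for most of these genes. MF and CF differed in 2180 genes (14.4% of those tested). Of the 584 genes called in males, 570 (97.6%) had the same sign in females and 405 were called there too, all in the same direction, which is 69.3% of the male calls and 18.6% of the female calls. The share of all genes tested with the same sign in both sexes was not computed. The female libraries also entered the estimate of the spread behind the male calls. *Hamp* was at 385 ± 132 CPM (SD, n = 4) in CF and 0.117 ± 0.146 CPM (SD, n = 4) in MF (adjusted p = 6.21e-06, edgeR). The log2 fold change in females was 3.15 for *Tfrc* (adjusted p = 0.000363), 3.82 for *Apoa4* (adjusted p = 4.76e-05) and 0.70 for *Cpt1a* (adjusted p = 0.00128). *Bcl6* and *Igfbp1*, called in males, gave 0.54 and -0.43 in females (adjusted p = 0.341 and 0.552), and their interactions were not called (adjusted p = 0.38 and 0.518).

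At 8 weeks, 4 genes were called between MM and CM by the quasi-likelihood test (0.0282% of 14195 tested). The likelihood ratio test called 58, the exact test 53 and DESeq2 66. Of the 584 genes called at 3 weeks, 561 were tested at 8 weeks and none was called by the quasi-likelihood test. The likelihood ratio and exact tests of edgeR called 4 of them and DESeq2 5, and 49 (8.73%) had an unadjusted p below 0.05, against 5.98% of all genes tested at that age. The sign was shared by 285 (50.8%), and the median size of the difference was 0.67 at 3 weeks and 0.13 at 8 weeks on the log2 scale. *Apoa4* differed by 0.77 (adjusted p = 0.58), *Cpt1a* by 0.06 (adjusted p = 1), *Tat* by -0.43 (adjusted p = 0.958) and *Gsta2* by 0.12 (adjusted p = 1). Because library kits were not the same for both ages, no test was made between them.

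**Figure D5:**
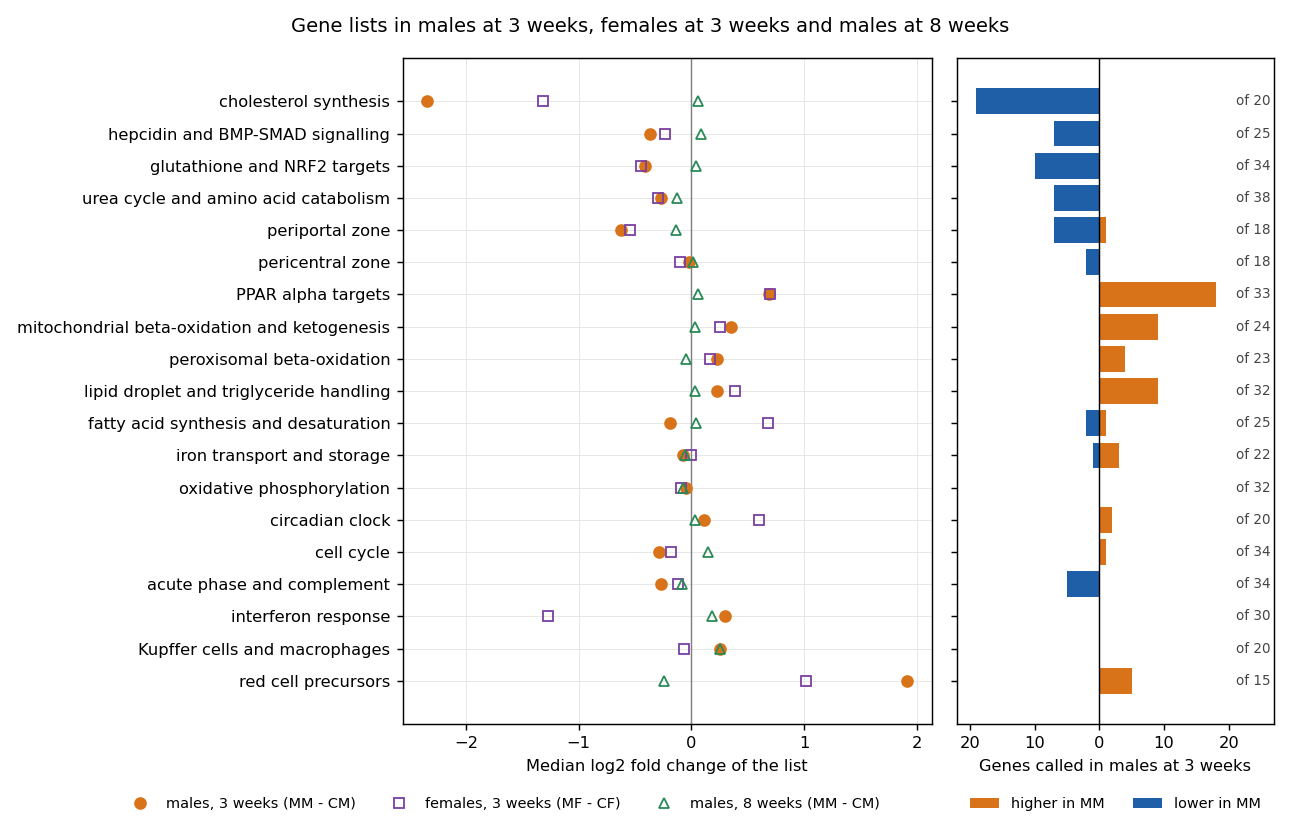
Left, the median log2 fold change of 19 gene lists in males at 3 weeks (filled circles), females at 3 weeks (squares) and males at 8 weeks (triangles); right, the number of genes called in males at 3 weeks, higher in MM in orange and lower in blue, beside the number tested. Male and female medians at 3 weeks lie on the same side of 0 for PPARα targets, glutathione genes and the periportal zone and on opposite sides for the interferon response, fatty acid synthesis and Kupffer cell markers, and the 8-week medians are 0.06 for PPARα targets and for cholesterol synthesis.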

How the data were processed

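RNA was measured in whole liver, with mRNA libraries from a KAPA kit at 3 weeks and an Illumina kit at 8 weeks. Per the labels and the study's methods, the authors aligned the reads to mm10 with STAR, left out low-quality and multi-mapped reads and counted reads per gene with featureCounts, whose version and strand setting for these RNA libraries are not given in the sources used here. The deposited tables hold these raw read counts for genes that passed a filter of about 15 reads in 4 libraries. They also hold log2 CPM values that the authors scaled by TMM, together with the authors' log2 fold changes, signed fold change scores, p-values and gene lengths, none of which was used here.

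Libraries were grouped by their labels. From the counts, genes with at least 15 reads in 4 of the 16 libraries of an age were kept, scaled by TMM, and fitted with edgeR 4.0.16 (glmQLFit, glmQLFTest, R 4.3.3) with a mean for each group of maternal diet and sex. Adjusted p-values are Benjamini-Hochberg values over all genes tested, and a gene was called below 0.05. The interaction was (MM minus CM) minus (MF minus CF). The 3-week and 8-week tables were never fitted together. CPM are on TMM-scaled library sizes, and floors were not needed, since no gene named was at 0 in a whole group. Total counts per library at 3 weeks were 34340804 to 43618875 in CM and 34950732 to 45825607 in MM. Pairs of libraries of a group differed by 24.8 to 131 times the variance of counting (chi-square over its degrees of freedom), so none was a repeat deposit. The procedure was also run on counts simulated from its own estimate of the spread. No library was made to stand apart in them, so they do not show how it handles such libraries.

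The comparison, the gene lists and the rule for named genes were chosen with earlier results of these data known. Named were the 12 genes with the largest change in each direction among those called, without overlap and with a mean of at least 1 CPM in the higher group (predicted models left out), the 5 called members with the largest change and the first 3 members of each list, and genes the study names or that were called at both ages. *Smad7* falls outside the rule and was added after its values were seen. Some genes that the rule names are not reported here. The bases before gene starts come from RefSeq (GRCm38.p6), and 11231 genes tested had such a window. Alternatives were other scalings (RLE, total count, upper quartile), filters (none, or 1 CPM in 4 libraries), the likelihood ratio and exact tests of edgeR, DESeq2 1.42.0, the 8 male libraries alone, a replicate block, and leaving out each library or CM1 and MM1 together.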

Additional observations from a re-analysis of the deposited data

Results flagged for a closer look

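Within the groups of 4 libraries, single libraries stood apart by Dixon's criterion (a gap to the nearest library above the critical share of the group's range) in 11 of 160 gene and group sets examined (6.88%), where chance gives about 1 in 20. MM1 accounts for 6 of the 11. In MM1, *Tat* was at 478.9 CPM (others 244.9 to 282.6), *Gls2* at 174.5 CPM (106.1 to 110.7), *Arntl* at 33.03 CPM (2.973 to 6.563), *Npas2* at 8.612 CPM (0.5085 to 0.6472), *Alb* at 106200 CPM (85110 to 87400) and *Hlf* at 54.8 CPM (102.9 to 109.8). Except for *Hlf*, MM1 was the highest library of its group in these genes. In CM4, *Saa1* was at 833.3 CPM (8.934 to 14.07) and *Alb* at 98240 CPM (116100 to 118200). In CM1, *Vnn1* was at 60.22 CPM (37.15 to 38.9). MM5 was the highest of its group for *Fgf21* at 20.58 CPM (2.953 to 4.948), and MM4 the lowest for *Etnppl* at 35.61 CPM (59.99 to 60.64).

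*Sqle* differed more between MM and CM than between MF and CF, with an interaction of -1.57 on the log2 scale (adjusted p = 0.0477, edgeR). What sets these libraries and genes apart was not tested.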

How the results depend on the processing

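Against 584 genes called at 3 weeks, DESeq2 called 1062, the 8 male libraries alone 214, and fits without 1 male library between 264 (without MM3) and 790 (without MM1). The other scalings, filters and edgeR tests gave 572 to 734, within 1.5 times the count given. In the fit of male libraries alone fewer libraries share the estimate of the spread, and in the other cases the cause was not tested. Same-numbered CM and MM libraries deviated together in 1 of 4 pairs at each age (correlations 0.296, -0.217, -0.077 and -0.322 at 3 weeks, and 0.006, 0.392, -0.06 and -0.048 at 8 weeks), so the numbers were not taken to pair the libraries. With the replicate block 170 genes were called at 3 weeks, 149 of them among the 584, and 9 at 8 weeks.

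For the interaction with sex, 2 genes became 1 with total count or upper quartile scaling, 18 with the likelihood ratio test, 33 with DESeq2 and 0 to 3 with 1 library left out. The exact test could not be run for it. At 8 weeks, 4 genes became 58 with the likelihood ratio test, 53 with the exact test, 66 with DESeq2 and 2 to 13 with 1 library left out.

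List medians under total counts were 0.030 for iron, 0.32 for peroxisomal β-oxidation, 0.15 for sterol regulators, -0.12 for bile acids, 0.29 for pattern recognition receptors, 0.054 for oxidative phosphorylation and 0.36 for Kupffer cells. Without CM1 and MM1 they were -0.044 for sterol regulators, -0.17 for retinoid metabolism and 0.95 for adipocyte markers. With 1 library left out they ran from -0.062 to 0.15 for sterol regulators, 0.084 to 0.24 for pattern recognition receptors, -0.34 to -0.10 for one-carbon metabolism and -0.70 to -0.44 for the periportal zone. The other 799 list medians moved by less than the spread between libraries. Among single genes, 468 of the alternative values lost a call, 93 gained 1 and 3898 kept their side of the threshold, and none of these was a called value that changed sign. Genes near 1 CPM and changes that rest on 1 library are the least certain.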

Other observations

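Several groups of genes that the comparisons above leave out held a few calls each. Of 24 genes of bile acid synthesis and transport, *Fgfr4*, the receptor for the intestinal hormone FGF15, had a log2 fold change of -0.61 ± 0.10 (adjusted p = 0.00237, edgeR), *Cyp27a1*, which starts the alternative pathway of synthesis, -0.48 ± 0.11 (adjusted p = 0.0244), *Abcb11*, the bile salt export pump, -0.58 ± 0.15 (adjusted p = 0.044) and *Abcb4*, the phospholipid exporter, 0.40 ± 0.08 (adjusted p = 0.0147). The list had 4 calls, 1 without CM4, 2 without CM1, CM5 or MM3 and 1 in the male libraries alone. The *Abcb11* call was lost without any library but MM1 and in the male libraries alone (adjusted p = 0.145), with overlap between the groups, and the *Cyp27a1* call was lost without CM1, CM4, CM5, MM3 or MM4. Of 48 genes of cytochrome P450 and conjugation, 3 rose and 3 fell, with *Por*, the reductase that passes electrons to P450 enzymes, at 0.85 ± 0.20 (adjusted p = 0.027) and *Aldh3a2*, which oxidizes fatty aldehydes, at 0.75 ± 0.15 (adjusted p = 0.0107). The 6 calls became 1 without MM3, 3 without CM5 or MM4 and 2 in the male libraries alone, and the *Por* call was lost without CM1, CM4, CM5, MM3 or MM5. Of 20 genes of one-carbon metabolism, *Pemt*, which makes phosphatidylcholine by methylation, was at -0.49 ± 0.09 (adjusted p = 0.00493) and *Mat2a*, which makes the methyl donor S-adenosylmethionine, at 0.39 ± 0.08 (adjusted p = 0.0106). That list had 4 calls, 2 without CM5, MM3, MM4 or MM5 and 1 in the male libraries alone.

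Among 22 genes of cell death, *Bbc3*, a pro-apoptotic BCL2 family member, was at -1.24 ± 0.26 (adjusted p = 0.0174), a call lost without MM4. Among 25 pattern recognition receptors the quasi-likelihood test called *Tlr12* alone (4%, where 3.87% of all genes were called). It was at 5.95, 5.71, 6.46 and 8.96 CPM in CM and 12.1, 26.4, 23.9 and 24.2 CPM in MM (1.68 ± 0.21, adjusted p = 0.000323), with each MM library above each CM library. DESeq2, the likelihood ratio test and the exact test each called 4 of the 25, as did the quasi-likelihood test without MM1. None of 13 genes of fetal and immature liver was called by edgeR or DESeq2, and 3 had an unadjusted p below 0.05.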
